A study of Mus musculus with 5 samples.

Results

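Dnm1, Bin1, Sh3gl2, Snap91 and Atp6v1a encode proteins that retrieve synaptic vesicle membrane or acidify vesicles, and their RNA was followed in the developing mouse cerebellum. Members were all probes of the deposited table whose only gene symbol is one of these names, and the genes had been picked with earlier results of these data known. It found 5 probes, 1 for each of the 5 genes, among 773 genes named by the 787 probes with 1 symbol and 897 probes in all. Total RNA of mouse cerebellum had been hybridised to arrays at 5 ages: 18 days of embryonic life (E18) and, after birth, days 7 (P7), 14 (P14), 21 (P21) and 56 (P56). Strain, genotype, treatment and sex were not given in the sources used here, and the groups compared differ by age alone as far as the labels say. According to the descriptions every value averages 2 array experiments, and each age has 1 column, so no difference below has a replicate test and no p-value is given.

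The values were read as percent: 100 is the age at which a probe was brightest in both experiments, and every other value is its level relative to that. A value can be compared with other ages of the same probe, not with another probe. If each experiment lay between 0 and 100, the mean limits what either of them can have held: a mean of 29.21% allows 0 to 58.42%, and a mean of 90.11% allows 80.22 to 100%. Likewise, means more than 50 percentage points apart require both experiments to have moved in the same direction. These limits stand in for an error here and rest on that reading of the scale. The words rose and fell are kept for changes of 2-fold or more. In RNA of whole tissue, a change in the share of a cell type and a change in RNA per cell cannot be told apart.

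After a synaptic vesicle has fused with the terminal membrane, its membrane is taken back up and refilled. Clathrin and its adaptors, among them the Snap91 product, bend the membrane into a bud. Proteins with a curved BAR domain, such as the endophilin encoded by Sh3gl2 and the amphiphysin relative encoded by Bin1, shape the neck of the bud and bring in dynamin through their SH3 domains, and dynamin, the GTPase encoded by Dnm1, cuts the vesicle free. The vacuolar proton pump, whose catalytic subunit A is encoded by Atp6v1a, then acidifies the vesicle, and the proton gradient drives uptake of transmitter. In the mouse cerebellum, granule cells are generated and most synapses are formed in the weeks after birth.

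Of the 5 genes, 4 rose from E18 to P56 and none fell: Dnm1 3.42-fold, Sh3gl2 3.17-fold, Atp6v1a 2.36-fold and Bin1 2.03-fold. Snap91 stood at 52.91% at E18 and 66.92% at P56, within 2-fold. Of all probes 22.6% were higher and 52.5% lower by 2-fold or more in this comparison. That balance depends on the scaling between columns: 30.3% were higher and 16.4% lower with each column divided by its median. The steepest step was P7 to P14 for Dnm1 and, in the values as deposited, P14 to P21 for Sh3gl2, and Snap91 was highest at P14. After quantile normalization the Sh3gl2 steps P7 to P14 (1.29 on the log2 scale) and P14 to P21 (1.27) were nearly equal. Among relatives and partners on the same arrays, the endophilin gene Sh3gl3, the proton pump gene Atp6v1f and the scaffold gene Itsn1 had their lowest values at P21 or P56. The median of all probes was also lower then, at 84.49% at E18, 42.25% at P21 and 41.97% at P56. None of these genes fell from E18 to P56 with columns divided by their medians or after quantile normalization.

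**Figure D1:**
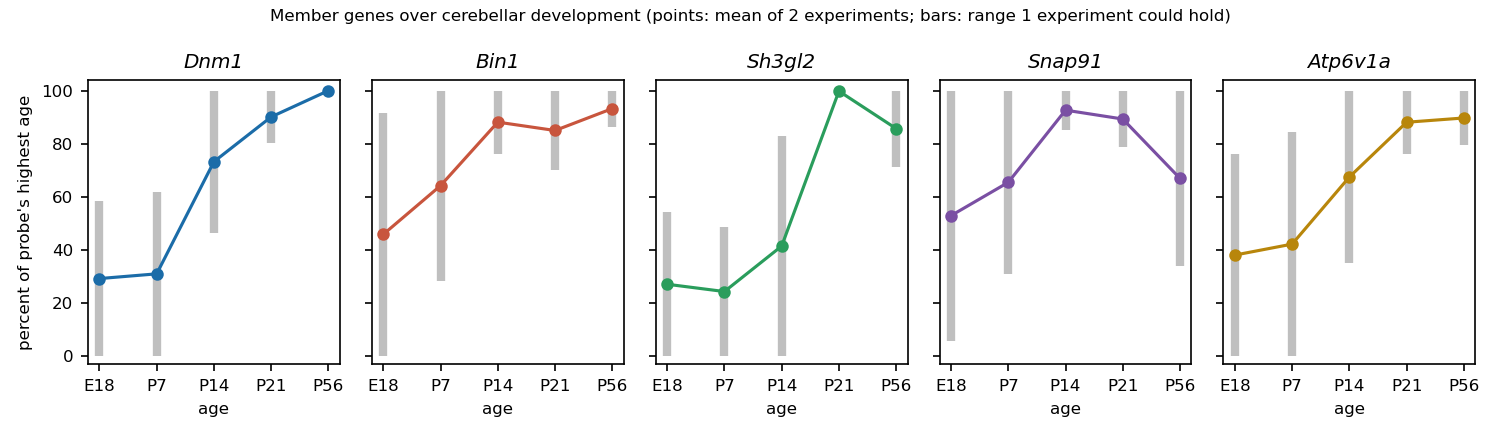
Percent of the probe's highest age (y axis, 0 to 100) against age (x axis, evenly spaced, not to time) for each of the 5 genes. Points are the deposited means of 2 experiments and grey bars the range a single experiment could hold if each lies between 0 and 100. Dnm1 climbs from 29.21% to 100%, Sh3gl2 jumps from 41.45% at P14 to 99.81% at P21, and Snap91 peaks at 92.64% at P14.

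Promoter sequence is given for both endophilin genes and both proton pump genes, since the genes of each pair changed unequally with age. RefSeq promoters (assembly GRCm38.p6) were taken for 4 of the 5 members, all but Bin1. The selection of windows left out the chromosome that carries Bin1, so no window of Bin1 was looked at. The shares of all promoter windows given below were counted without that filter. The 250 bases before the annotated start are printed 5′ to 3′ on the gene's strand. Capitals mark any of 3 motifs searched on both strands: TGACGTCA, the full cAMP response element; CACGTG, an E-box; and GGGCGG, the GC box (CCGCCC on the other strand). No 2 of these matches overlap. The Sh3gl2 window is chr4:85205206-85205455, plus strand, the Sh3gl3 window chr7:82174546-82174795, plus strand, the Atp6v1a window chr16:44139260-44139509, minus strand, and the Atp6v1f window chr6:29467533-29467782, plus strand.
Sh3gl2: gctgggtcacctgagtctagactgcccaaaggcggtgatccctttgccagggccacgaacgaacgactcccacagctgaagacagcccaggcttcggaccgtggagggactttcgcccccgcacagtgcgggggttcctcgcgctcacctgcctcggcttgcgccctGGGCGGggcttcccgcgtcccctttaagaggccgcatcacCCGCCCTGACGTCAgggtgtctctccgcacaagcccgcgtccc
Sh3gl3: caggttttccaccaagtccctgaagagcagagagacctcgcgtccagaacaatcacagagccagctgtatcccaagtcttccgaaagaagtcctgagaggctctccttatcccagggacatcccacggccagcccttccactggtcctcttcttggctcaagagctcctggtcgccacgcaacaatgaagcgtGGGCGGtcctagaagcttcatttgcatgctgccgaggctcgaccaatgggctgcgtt
Atp6v1a: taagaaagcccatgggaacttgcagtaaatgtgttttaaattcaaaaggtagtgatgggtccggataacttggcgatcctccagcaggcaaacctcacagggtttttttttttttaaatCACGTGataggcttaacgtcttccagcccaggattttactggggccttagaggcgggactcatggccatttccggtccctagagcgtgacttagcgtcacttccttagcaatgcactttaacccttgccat
Atp6v1f: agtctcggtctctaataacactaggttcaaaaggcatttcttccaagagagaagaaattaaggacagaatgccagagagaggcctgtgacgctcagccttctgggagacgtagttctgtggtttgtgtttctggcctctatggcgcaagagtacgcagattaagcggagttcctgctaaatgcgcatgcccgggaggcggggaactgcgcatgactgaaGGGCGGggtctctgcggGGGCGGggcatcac

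Sh3gl2 held 1 TGACGTCA, beginning 37 bases before the start, directly after a GC box that begins at 43, and another GC box at 83. Sh3gl3 held 1 GC box at 57 and neither of the other motifs. The Atp6v1a window held 1 CACGTG at 131 and no GC box, while that of Atp6v1f held GC boxes at 31 and 14. The windows of Dnm1 and Snap91, not printed, held 0 of the motifs and 2 GC boxes. Of 32851 promoter windows of this length, 1.55% held TGACGTCA, 6.02% CACGTG and 32.7% GGGCGG; among the 837 windows of genes on the array the shares were 2.39%, 10.9% and 61.2%. These matches are letters in a window and were not tested for binding.

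Dnm1, the neuronal dynamin, was at 29.21% at E18, 30.99% at P7, 73.24% at P14, 90.11% at P21 and 100% at P56. It was thus low and level before birth and in the week after, and highest in the adult. The value of exactly 100% places the highest age of both experiments at P56. From E18 to P56 the gain was 70.8 percentage points (1.78 on the log2 scale), so both experiments were higher at P56, each by at least 1.71-fold. Dnm1 was the member that rose from P7 to P14 (2.36-fold, a gain of 42.3 points), a step in which 14.4% of all probes rose. That gain is below the 50 points that would fix the direction in both experiments, whereas P7 to P21, a gain of 59.1 points, is above it.

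Bin1, whose product binds curved membrane and dynamin and which is also expressed outside neurons, was at 45.86% at E18, 64.21% at P7, 88.13% at P14, 84.98% at P21 and 93.24% at P56. Most of its gain came before P14, by which age it stood 1.92-fold above E18. Its later values lay between 84.98% and 93.24%. The total of 47.4 points from E18 to P56 does not fix the direction in both experiments, and the 2.03-fold rise lies close to the 2-fold limit. From E18 to P7 its value increased by 18.4 points, the largest such change of the 5 genes, yet within 2-fold. None of the 5 rose or fell in that step, in which 5.8% of all probes rose.

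Sh3gl2, the endophilin gene expressed mainly in brain, was at 27.07% at E18, 24.32% at P7, 41.45% at P14, 99.81% at P21 and 85.69% at P56. Its highest value to P14 was thus 41.45% and its lowest after that 85.69%. The step from P14 to P21 was 2.41-fold (1.27 on the log2 scale), a gain of 58.4 points that both experiments must share, and each must have been at least 1.20-fold higher at P21. In this step 3.23% of all probes rose, and 13 of the 897 had a larger increase. At P21 either experiment must have been at 99.62% or more.

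Snap91, a clathrin assembly protein gene of nerve terminals, was at 52.91% at E18, 65.45% at P7, 92.64% at P14, 89.3% at P21 and 66.92% at P56. It was the least variable of the 5, with the lowest value at E18 and the highest at P14 1.75-fold apart. Between P21 and P56 it went from 89.3% to 66.92%, a difference of -0.42 (log2) that 15.4% of probes undercut. None of the 5 genes rose or fell in this last step, in which 2.68% of all probes rose. At E18 the mean allows an experiment anything from 5.82% to 100%, so that value bounds little.

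Atp6v1a, the catalytic subunit gene of the vacuolar proton pump, was at 38.06% at E18, 42.19% at P7, 67.47% at P14, 88.09% at P21 and 89.7% at P56. Its gain was spread over the steps P7 to P14 (25.3 points) and P14 to P21 (20.6 points), each within 2-fold, and together they gave a 2.09-fold rise. From E18 to P56 the gain of 51.6 points places both experiments in the same direction, with a least difference of 1.04-fold in either.

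**Figure D2:**
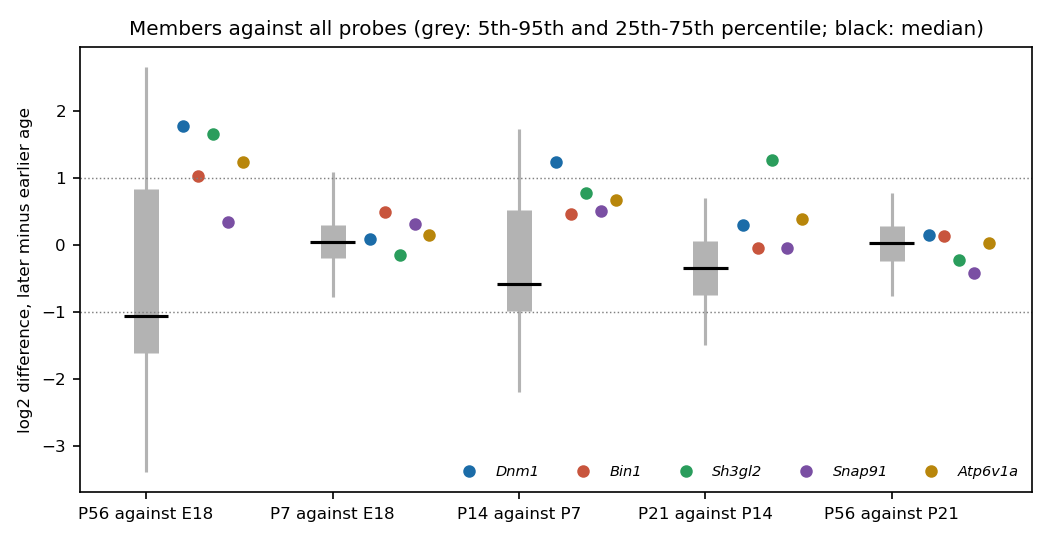
Difference in log2 percent, later minus earlier age (y axis), for P56 against E18 and for the 4 steps between neighbouring ages (x axis). Coloured points are the 5 genes, grey bars the 5th to 95th and 25th to 75th percentile of all 897 probes, the black line their median, and dotted lines mark 2-fold. All 5 genes lie above the median of -1.07 for P56 against E18, and Sh3gl2 at 1.27 stands alone above 2-fold for P21 against P14.

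The columns of the table differ in level: the median over all probes was 84.49% at E18, 82.77% at P7, 55.54% at P14, 42.25% at P21 and 41.97% at P56. Relative to these medians the members lay lower at first and higher later. Dnm1 was 0.346 times the column median at E18 and 2.38 times at P56. How the arrays were scaled to each other was not given in the sources used here, so the steps were also read with each column divided by its median and after quantile normalization. The first gave larger rises from E18 to P56 (Dnm1 6.89-fold, Sh3gl2 6.37-fold, Atp6v1a 4.74-fold, Bin1 4.09-fold and Snap91 2.55-fold) and the other 3.64-fold, 3.44-fold, 2.64-fold, 2.35-fold and 1.81-fold. From P7 to P14, 5 members rose with columns divided by their medians and 3 (Dnm1, Sh3gl2 and Atp6v1a) after quantile normalization, in place of 1. Across the table, the P56 against E18 split of 203 probes higher and 471 lower became 272 and 147, or 246 and 206. The P7 to P14 split of 129 and 222 became 238 and 105, or 224 and 164, and that of P14 to P21, 29 and 118, became 61 and 51, or 57 and 40. The change of a gene relative to another does not depend on a factor per column, but quantile normalization can alter it. By that measure Dnm1 gained 2.71-fold on Snap91 from E18 to P56, 1.68-fold on Bin1 and 1.08-fold on Sh3gl2, and after quantile normalization 2.01-fold, 1.55-fold and 1.06-fold.

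As profiles, Dnm1 and Atp6v1a were the most alike of the 10 pairs of members, with a mean absolute difference of 7.63 percentage points over the 5 ages. Bin1 and Snap91 followed with 8.69 points. Sh3gl2 and Snap91 were the least alike, at 29.5 points. For scale, the 14 genes with 2 probes on the array had differences between their own probes of 2.43 to 23.8 points, with a median of 7.06. The 2 closest pairs of members lay near that median, but they were picked as the closest of the 10. Many other probes came as near. Of 782 others, 63 lay within 10 points of Dnm1, 58 of Atp6v1a, 40 of Bin1 and 13 of Snap91. The highest value was at P56 for Dnm1, Bin1 and Atp6v1a, at P21 for Sh3gl2 and at P14 for Snap91, where 14.7%, 8.58% and 8.25% of all probes had theirs. In none of the 5 was it at E18 or P7, where 34.9% and 33.6% of probes were highest.

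The probes nearest to each member, by the same measure and outside the 5 genes, were looked up among the 782 others with 1 symbol. Nearest to Dnm1 were Penk, the proenkephalin gene, at 0.948 points, Camk2b, a calcium and calmodulin-dependent kinase subunit gene, at 1.96 points, and Ak4, an adenylate kinase gene, at 2.67 points, and 13 probes lay within 5 points. Nearest to Atp6v1a were Specc1 at 3.35 points, Pkd1, the polycystin gene, at 4.74 points, and again Ak4 at 4.95 points. For Bin1 they were Prnp, the prion protein gene, at 3.31 points, Pkp4, a plakophilin gene, at 3.40 points, and Max, the partner gene of Myc, at 4.27 points. Fewer probes resembled the others: for Sh3gl2 Tyro3, a receptor tyrosine kinase gene, at 3.33 points, Ache, the acetylcholinesterase gene, at 4.44 points, and Jup, the plakoglobin gene, at 6.41 points. Snap91 had 0 probes within 5 points, the nearest being Tmem41b at 5.46, 2900006A08Rik at 7.16 and Rnf103 at 7.40 points. Likeness over 5 columns is a description of shape only.

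Other genes of the same pathway came from 2 lists. Of 57 genes of the endocytosis machinery 9 were measured, 4 of them members. Of the other 5, 3 rose from E18 to P56, 1 fell and 1 stayed within 2-fold, beside 22.6% of all probes risen and 52.5% fallen. The median log2 difference over these 5 was 1.43, against -1.07 for all probes. Over the 9 it was also 1.43, but 4 of the 9 had been picked with earlier results known. Pacsin1, which encodes an F-BAR protein that binds dynamin in neurons, was at 14.12% at E18, 23.07% at P7, 63.48% at P14, 59.63% at P21 and 100% at P56. Its 7.08-fold rise was the largest of the 9, and both experiments were higher by at least 3.54-fold. Ppp3ca, the gene of the calcineurin catalytic subunit that dephosphorylates dynamin in terminals, rose 2.74-fold, from 33.63% at E18 through 50.59%, 95.03% and 78.31% to 92.08% at P56. Numb, an adaptor gene of endocytosis and of Notch regulation, rose 2.69-fold, from 31.34% at E18 to 57.97% at P7, 86.13% at P14, 84.74% at P21 and 84.23% at P56. None of the 14 listed genes of the vesicle membrane and synapsins was among the probes with 1 symbol.

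Sh3gl3, the paralogue of Sh3gl2, moved the opposite way from P14 to P21. It was at 92.36% at E18, 74.39% at P7, 100% at P14, 43.2% at P21 and 27.35% at P56, so its 2 lowest values fell at the 2 ages where Sh3gl2 was highest. From P14 to P21 it fell 2.31-fold, a drop of 56.8 points that both experiments must share, while Sh3gl2 rose 2.41-fold. In this step 13.2% of all probes fell. In the other steps both genes changed in the same direction, each within 2-fold in the values as deposited. The change of Sh3gl2 relative to Sh3gl3 was 5.57-fold from P14 to P21 and 10.7-fold from E18 to P56, against 1.12-fold from E18 to P7, 1.27-fold from P7 to P14 and 1.36-fold from P21 to P56. After quantile normalization it was 3.86-fold from P14 to P21 and 6.87-fold from E18 to P56. How much of this is a fall of Sh3gl3 depends on the scaling: from E18 to P56 it fell 3.38-fold, but the value was 1.68-fold lower with columns divided by their medians and after quantile normalization the log2 difference was -0.997, just short of the limit. From P14 to P21 the corresponding values were 1.76-fold and 1.60-fold lower. The probes of related genes could share sequence, and cross-hybridisation was not tested.

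Itsn1, which encodes the scaffold intersectin that binds dynamin and endocytic adaptors, was at 69.1% at E18, 88.13% at P7, 86.4% at P14, 42.25% at P21 and 37.17% at P56. It was high to P14 and low after, with a fall of 2.04-fold from P14 to P21 (a drop of 44.2 points), the same step as for Sh3gl3. Unlike the drop of Sh3gl3, this one does not fix the direction in both experiments. From P14 to P21 Itsn1 was 1.56-fold lower with columns divided by their medians and 1.53-fold lower after quantile normalization. Its P56 against E18 difference of -0.89 (log2) turned to 0.11 with columns divided by their medians and to 0.13 after quantile normalization, so no direction is given for it. Dnm1 gained 6.36-fold on Itsn1 from E18 to P56, and 3.33-fold after quantile normalization.

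**Figure D3:**
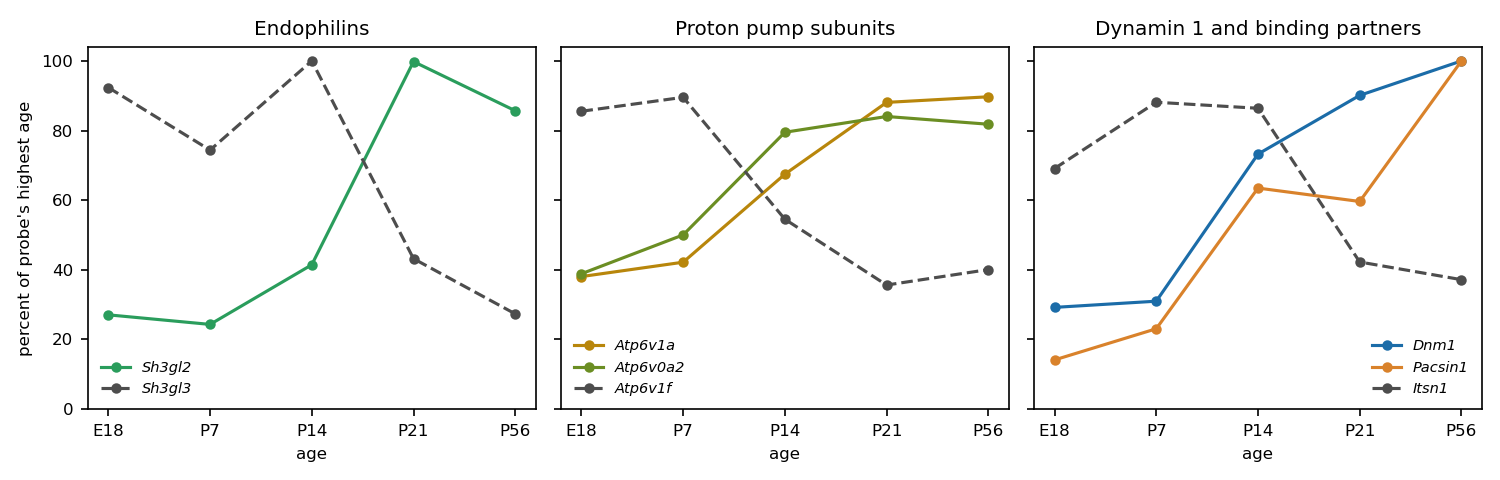
Signal in percent of the highest age of that probe (y axis, 0 to 100) against age (x axis, evenly spaced) for the 2 endophilin genes, 3 proton pump genes, and Dnm1 with the genes of 2 dynamin-binding proteins. Between P14 and P21 Sh3gl2 goes from 41.45% to 99.81% and Sh3gl3 from 100% to 43.2%; because each probe has its own scale, the point where lines cross carries no meaning.

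Of 35 genes of the proton pump and of vesicle filling 4 were measured, and the 3 beside Atp6v1a included 2 further pump subunits. Atp6v0a2, a gene of the membrane-embedded part of the pump, was at 38.87% at E18, 50.03% at P7, 79.51% at P14, 84.04% at P21 and 81.82% at P56 and rose 2.10-fold, close to the limit. Slc32a1, the gene of the transporter that fills vesicles with GABA and glycine, was at 35.07%, 40.62%, 68.31%, 72.49% and 100% at the same ages and rose 2.85-fold, in both experiments by at least 1.43-fold. In contrast, Atp6v1f, which encodes a small subunit of the same cytosolic part as Atp6v1a, was at 85.54%, 89.55%, 54.53%, 35.63% and 40.07% and fell 2.13-fold from E18 to P56. Values of this subunit were thus highest at the 2 youngest ages, where those of Atp6v1a were lowest. Atp6v1a gained 5.03-fold on Atp6v1f over this span, of which 2.63-fold came between P7 and P14 and 1.998-fold between P14 and P21. After quantile normalization the gain was 2.80-fold over the whole span, 2.60-fold between P7 and P14 and 1.49-fold between P14 and P21. The fall of Atp6v1f itself did not hold on other scales, being 1.06-fold lower both with columns divided by their medians and after quantile normalization; its difference of -1.09 (log2) lay -0.02 from the median of all probes. The relation between the 2 subunit genes was thus one of unequal change.

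The genes of vesicle fusion and release form a related group on the same arrays. Of 37 listed 12 were measured, and from E18 to P56, 7 rose and 2 fell (median 1.33 on the log2 scale). For endocytosis 6 of 9 rose and 1 fell, and for the pump and filling list 3 of 4 rose and 1 fell. Of all probes 22.6% rose and 52.5% fell. With columns divided by their medians, 10, 7 and 3 genes of the lists rose and 2, 0 and 0 fell. In that scaling 30.3% of all probes rose and 16.4% fell. The endocytosis and pump lists include the members, which had been picked with earlier results known. The difference between these lists was not tested. The largest changes of the release genes were Syt2, a calcium sensor gene of fast release (33.6-fold higher), and Stx1a, a plasma membrane SNARE gene (27.3-fold lower). Next came Syt5, another synaptotagmin gene (13.5-fold lower), and Snap25, a SNARE gene (5.32-fold higher). All of these changes were larger than those of Dnm1 or Sh3gl2. From P7 to P14, 6 of 12 release genes rose and 1 fell, while 2 of 9 endocytosis genes (Dnm1 and Pacsin1) and 0 of 4 pump and filling genes rose, beside 14.4% of all probes. With columns divided by their medians 7 of 12, 8 of 9 and 3 of 4 rose, beside 26.5% of all probes, and after quantile normalization 7, 5 and 3, beside 224 of the 897 probes.

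**Figure D4:**
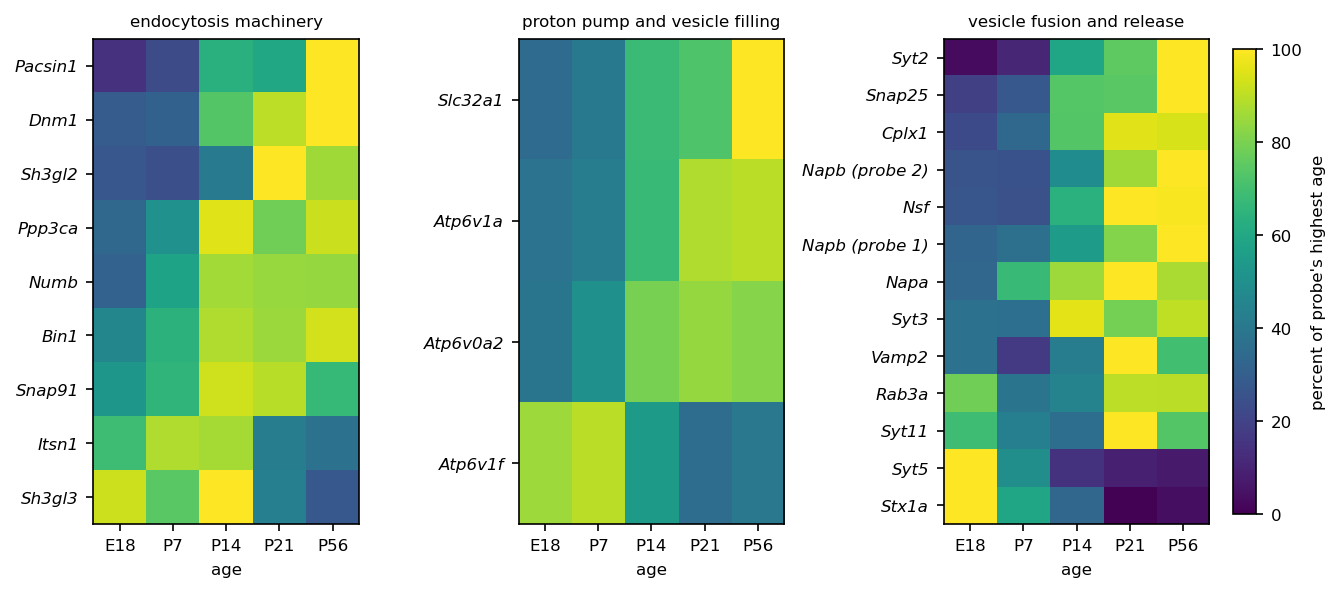
Percent of each probe's highest age (colour, 0 to 100) by age (columns) for every measured gene of 3 lists (rows, sorted by P56 over E18; Napb has 2 probes). Most rows brighten from left to right, and Itsn1, Sh3gl3, Atp6v1f, Syt5 and Stx1a are lower at P56 than at E18; with other scalings of the columns Itsn1 changes sign and Atp6v1f is level to 1.06-fold.

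Markers of the cell types present moved over the same ages, and their part in the members' changes was not tested. The mean percent of 7 markers of mature granule cells (of 15 listed) was 13.5% at E18, 18.8% at P7, 78.0% at P14, 86.4% at P21 and 87.5% at P56, and 6 of the 7 rose from E18 to P56. Their summed percent went from 94.3 at E18 to 613 at P56. The mean of 7 Purkinje cell markers (of 14) was 16.4%, 26.2%, 77.0%, 80.2% and 86.1%, and all 7 rose, with sums of 115 at E18 and 603 at P56. Means of 5 markers of oligodendrocytes and myelin (of 15) were 7.20%, 13.1%, 68.1%, 87.0% and 62.5%. Those of 6 markers of astrocytes and Bergmann glia (of 13) were 7.79%, 48.0%, 58.8%, 68.9% and 76.5%. All of these markers rose from E18 to P56 as well. The 6 astrocyte and Bergmann glia markers were highest at different ages, from P7 to P56, so their mean does not give the course of each. All 17 measured markers of dividing cells (of 20) fell, and their mean went from 82.3% at E18 and 95.6% at P7 to 13.7%, 6.63% and 6.94%. Of all probes, 22.6% rose and 52.5% fell from E18 to P56. With columns divided by their medians these shares were 30.3% and 16.4%. The calls of the markers are given for the deposited scale only. Defining markers under 1% at E18 were Gabra6 (0.72%), Gabrd (0.02%), Mag (0.38%) and Mog (0.47%). Atp2a3, of the Purkinje list, had probes at 0.08% and 3.71% at E18, which were averaged. Over the ages these probes differed by a mean of 21.5 points.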

How the data were processed

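The deposited percent values were made by the authors; per the labels each is the mean signal of 2 array experiments, and whether these used separate animals, how background was corrected and how arrays and probes were scaled and selected were not given in the sources used here. That 100 marks a probe's highest age in each experiment was read from the values: all lie between 0.01 and 100, and 420 of 897 probes reach exactly 100. Symbols came from the platform annotation; for the 5 members they matched RefSeq by gene identifier.

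Values under 1% were set to 1%, log2 differences were taken between ages, and 2-fold or more was a call; lists use the mean over a gene's probes. Likeness was the mean absolute difference in percentage points over the 5 ages. Members, lists and the 1% floor were chosen with earlier results of these data known, and the 3 motifs after the promoters had been seen. Named genes were all members, the 3 nearest probes of each, and all measured genes of the endocytosis, pump and vesicle membrane lists. The 4 most changed release genes were also named, with cell markers as context. Of the markers, only those defining ones with a probe under 1% at E18 are named, a choice made after their values were seen. Precision is limited by the number of arrays. The calculation was tested on simulated data with planted changes well past the 2-fold limit and no difference in level between columns. That test therefore does not bear on the scaling or on changes near the limit. The alternatives comprised a floor at the 10th percentile (20.4%), a pseudocount of 1%, columns divided by medians, quantile normalization, a 1.5-fold limit, a filter to probes that reach 1% at every age, and correlation as likeness. Python 3.11.15, pandas 2.3.3 and numpy 2.4.6 were used.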

Additional observations from a re-analysis of the deposited data

How the results depend on the processing

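The differences of the 5 genes, 25 in all over 5 comparisons, kept their side of the 2-fold limit with a floor at the 10th percentile, with a pseudocount of 1% and with a filter to probes that reach 1% at every age. Of the 25, 5 passed the limit anew when columns were divided by medians and 2 after quantile normalization, and none was lost. Signs turned only among differences within 2-fold (Bin1 and Snap91 from P14 to P21 with medians; Dnm1 and Atp6v1a from E18 to P7, and Bin1 and Atp6v1a from P21 to P56, with quantile normalization). From P7 to P14, 1 member was past the limit in the main setting. The count was 5 on dividing columns by medians, 3 after quantile normalization and 3 at a 1.5-fold limit. Calls of higher probes also increased across the table in this step. Of all 897 probes, 129 were higher in the main setting. The number was 238 on dividing columns by medians, 224 after quantile normalization and 213 at a 1.5-fold limit. Probes lower at P56 than at E18 numbered 471, against 147 on dividing columns by medians and 206 after quantile normalization. By Pearson correlation of log2 values, of the 3 genes nearest to each member 1 was shared for Dnm1, 1 for Sh3gl2, 1 for Snap91, 0 for Bin1 and 0 for Atp6v1a, so the nearest genes depend on the measure. Correlation ignores the size of a change by its construction. No paired analysis was possible because each age has 1 column. With 1 column an age, no sample could be left out, and no group was large enough to look for outlying samples. Both scalings of the other genes of the lists, and quantile normalization of the changes of a gene relative to another, were chosen after seeing the data.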

Other observations

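Beyond the lists, 13 measured genes of membrane traffic and phosphoinositide metabolism were picked after the data had been examined, so their counts support nothing; 9 rose from E18 to P56 and 4 fell. Phosphoinositides recruit clathrin adaptors and dynamin to the membrane. Pip5k1b, a kinase gene that makes the main such lipid of the plasma membrane, was at 13.34% at E18, 14.82% at P7, 55.35% at P14, 88.27% at P21 and then 100%. It rose 7.50-fold, and its values at E18 and P7 were close together, as those of Dnm1 were. By correlation of log2 values it was among the 3 nearest genes of both Dnm1 (0.999) and Atp6v1a (0.997), over 5 columns. Inpp5j, which encodes a phosphatase of these lipids, rose 10.5-fold, from 9.5% at E18 through 31.93% at P14 and 86.71% at P21 to 100% at P56. The largest step of Inpp5j was thus from P14 to P21. Fnbp1, the gene of an F-BAR protein of endocytosis, rose 3.66-fold, and Rogdi 2.73-fold.

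The 4 genes that fell included 3 of endosomal sorting. Rab5c, an early endosome GTPase gene, was at 87.14%, 89.62%, 64.34%, 59.51% and 39.14% over the 5 ages and fell 2.23-fold. Snx6, a sorting nexin gene, fell 2.07-fold and Ap3m1, an adaptor subunit gene, 2.06-fold, all close to the typical probe of this table, whose median difference was -1.07 (log2). Cdk5r1, which encodes the activator of a kinase that phosphorylates dynamin, went from 100% at E18 to 38.84% at P56, a 2.57-fold fall, while Ppp3ca of the opposing phosphatase rose 2.74-fold. These falls depend on the scaling, an alternative chosen after seeing the data: with columns divided by medians the log2 differences were -0.15 for Rab5c, -0.04 for Snx6, -0.03 for Ap3m1 and -0.35 for Cdk5r1, all within 2-fold, and after quantile normalization -0.16, -0.02, -0.04 and -0.72.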
